A study of Mus musculus with 8 samples.

Results

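The respiratory chain is described here by its genes in mouse cells before and after chemical reprogramming. Members were all entries whose symbol begins with Nduf, Sdh, Uqcr, Atp5 or mt-, or with Cox and a digit, without the pseudogene mark -ps. This gave 140 of 39009 entries, of which 103 lie in the nuclear genome and 37 are encoded by the mitochondrial genome. The nuclear members comprise 44 of complex I, 6 of complex II, 8 of complex III, 28 of complex IV and 17 of complex V, the ATP synthase. By function, 74 are core or accessory subunits, 20 are assembly factors and 9 are isoforms restricted to certain tissues. The mt- members are 13 protein-coding genes, 2 rRNAs and 22 tRNAs. Ndufa4 and Ndufa4l2 are counted under complex IV, and Atp5sl, an assembly factor now known as Dmac2, under complex I. Cox4i1 was not analysed here.

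RNA sequencing covered 8 libraries in 5 groups. Cells called CiPSC, chemically induced pluripotent stem cells, are made from somatic cells with small molecules in place of transgenes. Neural stem cells at passage 2 (NSC) were the source of NSC-CiPSC lines 1, 2 and 3. Primary epithelium of the small intestine (IEC) was the source of IEC-CiPSC lines 10 and 13. Each source gave 1 library, and the embryonic stem cell line R1 (ESC) another. NSC and IEC came from E13.5 embryos. The compounds are not given in the sources used here. All but ESC carry a GOF-GFP transgene in a mixed background. The strain label reads C57BL/6J-Tg(GOFGFP)11Imeg/RbrcxICR for NSC, and its number goes up by 1 per sample to 17 in IEC-CiPSC line 13. ESC was labelled 129X1 x 129S1. Nothing in the labels ties the lines to separate animals or cultures. A p-value here therefore measures the spread between these lines, which may be technical.

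Complexes I to IV pass electrons from NADH and succinate to oxygen and, apart from complex II, pump protons out of the mitochondrial matrix. Complex V uses the resulting gradient to make ATP. Complex II is encoded in the nucleus alone, whereas the other complexes also contain subunits made from the mitochondrial genome, whose RNA is cut from long transcripts of each strand. Pluripotent stem cells are known for small, immature mitochondria and a reliance on glycolysis.

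Gene levels are FPKM, sequenced fragments scaled to the length of the transcript and to the mapped fragments of the library, and differences are on the log2(FPKM + 1) scale. A gene "rose" or "fell" where limma gave a Benjamini-Hochberg adjusted p under 0.05 over the 17011 genes tested, and calls of at least 2-fold are given separately. Of the 140 members, 117 passed the filter of FPKM 1 in at least 1 library. The 23 that did not were Atp5l2 and the 22 mt- tRNAs, 59 to 75 bases long, all listed at 0 in every library. Depth was estimated at 8820000 to 10100000 fragments per library. The libraries otherwise carried the markers of their labels, with 1 exception. The sum over 8 intestinal epithelium markers was FPKM 197 in IEC, with 2 of the 8 at FPKM 10 or more. In the same library it was 6731 for 6 fibroblast and mesenchyme genes, 3982 for 6 smooth muscle genes, 3641 for 6 leukocyte genes, 5764 for 5 liver genes and 2433 for 6 pancreas genes. All but 1 leukocyte gene of these lists were at FPKM 10 or more in IEC, and each list's sum was at most 95.8 in every other library. In such bulk RNA, fewer cells of a type and less RNA per cell cannot be told apart.

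Nuclear respiratory chain genes were high in NSC, low in IEC and intermediate in all pluripotent lines. Their share of the FPKM sum was 6.23% in NSC, 2.68%, 3.04% and 2.79% in the NSC-CiPSC lines, 2.11% in IEC, 2.87% and 2.84% in the IEC-CiPSC lines and 2.61% in ESC. The lines of both origins lay within 2.68% and 3.04%, each above ESC, while NSC stood more than a factor of 2 above each line. Of the 74 core and accessory subunits, NSC had the highest level of all 8 libraries for 71, the exceptions being Ndufa7, Ndufa1 and Cox7b. IEC had the lowest level for 45. Set against each other by size alone, since each is 1 library, NSC exceeded IEC for all 74 subunits. At least 2-fold differences toward NSC were found for 76 of the 102 nuclear members that passed the filter, where 15.5% of all genes differed so, and toward IEC for 2, where 20.5% of all genes did.

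**Figure D1:**
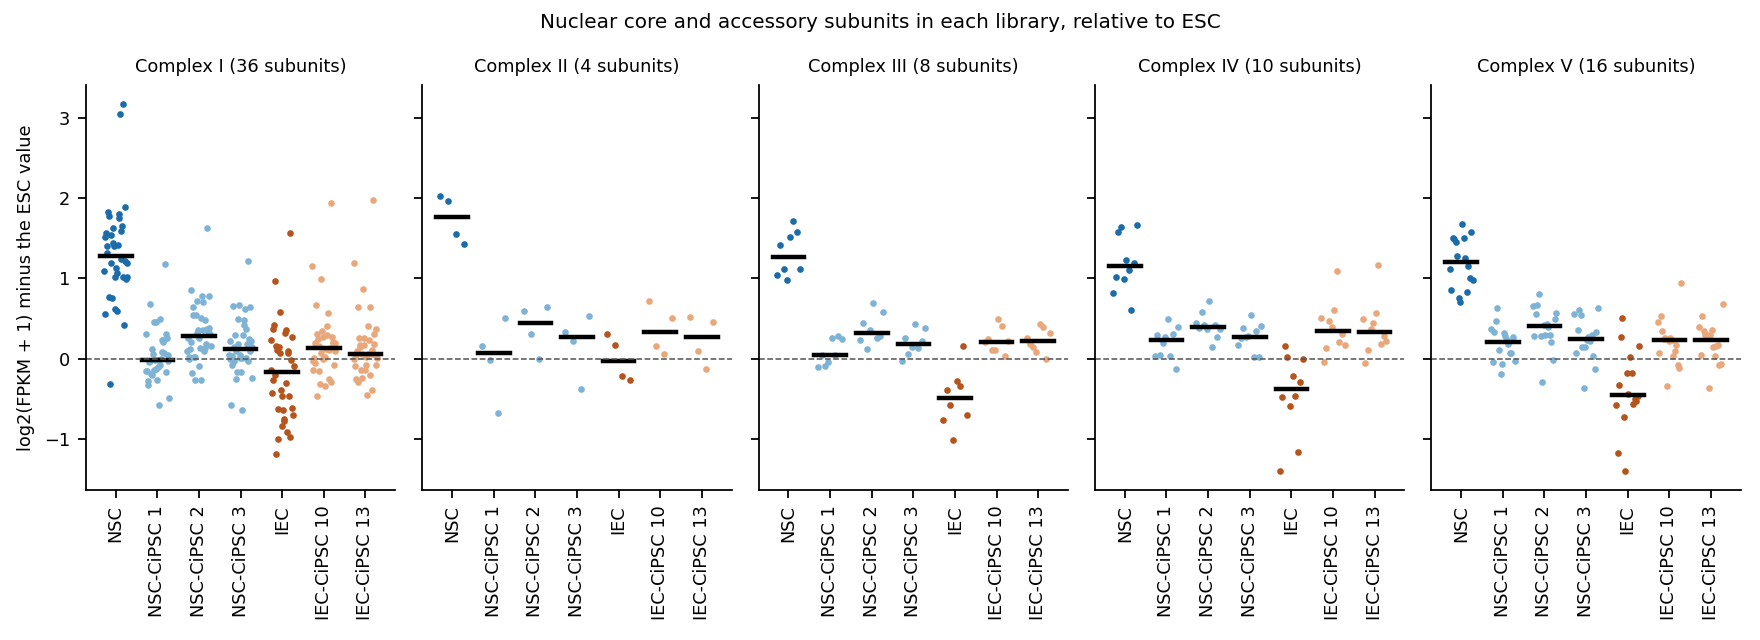
Levels of the 74 nuclear core and accessory subunits by complex, as log2(FPKM + 1) minus the value of the same gene in ESC (y axis), in each other library (x axis). Each point is 1 gene and each bar the median over the genes of a complex; medians lie between 1.15 and 1.76 in NSC and between -0.48 and -0.02 in IEC, and between -0.02 and 0.45 in the CiPSC lines.

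From NSC to NSC-CiPSC the nuclear subunits fell together. Of the 102 nuclear members tested 72 fell and 4 rose, where 28.6% of all genes fell and 27.3% rose. At least 2-fold falls numbered 52 and rises 3, where the shares over all genes were 20.7% and 18.3%. The median change of the nuclear members was -1.02, against 0.03 over all genes. Among the 74 subunits 67 fell and 0 rose by limma (1 had a higher level at an unadjusted p under 0.05), whereas of 20 assembly factors 3 fell and 3 rose.

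In the intestinal route more nuclear members rose than fell, and by less. From IEC to IEC-CiPSC 49 nuclear members rose and 3 fell, where 27.3% of all genes rose and 33.2% fell. At least 2-fold rises numbered 16 and falls 2, where 19.1% and 26.2% of all genes passed. The median change was 0.45, against -0.03 over all genes. Of the 74 subunits 37 rose, and 0 fell by limma (1 was lower at an unadjusted p under 0.05). Over all 117 tested members 50 rose, and 33 without IEC-CiPSC line 10 or without line 13. With FPKM rescaled over entries that are neither mt- encoded nor selenoprotein genes, 39 members rose and 11 fell, and the median of all genes shifted by -0.15. Quantile normalization gave 44 and 9 with a shift of 0.18, and median-ratio size factors 41 and 9 with a shift of -0.12. The shares of all genes that rose or fell under these scalings are not given here. The part of the other cell types in the IEC library in these changes was not tested.

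Complex I, the NADH dehydrogenase, takes electrons from NADH through its 7 nuclear core subunits, while 29 accessory subunits stabilise it. In the neural route 32 of its 36 nuclear subunits fell, 25 of them at least 2-fold, where 28.6% and 20.7% of all genes did. The exceptions were Ndufa6, Ndufa7, Ndufb4 and Ndufs6. Ndufc2, an accessory subunit of the membrane arm, was at FPKM 842 in NSC, 119, 166 and 156 in the NSC-CiPSC lines, 129 in IEC, 150.0 and 158 in the IEC-CiPSC lines and 101 in ESC. NSC stood far above the other 7 libraries, which did not separate by type. Its change was -2.52 ± 0.21 (SE, adjusted p = 0.00157) in the neural route and 0.25 ± 0.22 (SE, adjusted p = 0.387) in the intestinal one, which passed without NSC-CiPSC line 1 (adjusted p = 0.0488).

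The accessory subunit Ndufa5 was at 356 in NSC, 102, 91.0 and 101 in the NSC-CiPSC lines, 90.0 in IEC, 74.4 and 84.2 in the IEC-CiPSC lines and 103 in ESC. It fell by 1.85 from NSC (SE 0.11, adjusted p = 0.000681), and the IEC-CiPSC lines lay below IEC without a call (-0.18). Ndufa12 was at 552 in NSC, 152, 188 and 124 in the NSC-CiPSC lines, 154 in IEC, 186 and 190.4 in the IEC-CiPSC lines and 185 in ESC, again with NSC above and no order among the rest. The largest core subunit, Ndufs1, which carries iron-sulfur clusters, was at 155 in NSC, 68.7, 69.5 and 65.4 in the NSC-CiPSC lines, 34.1 in IEC, 54.3 and 56.4 in the IEC-CiPSC lines and 64.9 in ESC. NSC was highest, IEC lowest, and the 5 lines and ESC lay between, from 54.3 to 69.5. Ndufs1 changed by -1.18 ± 0.06 (SE, adjusted p = 0.000513) and 0.68 ± 0.07 (SE, adjusted p = 0.00184) in the neural and the intestinal route.

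In the intestinal route 12 of the 36 nuclear complex I subunits rose, 2 of them at least 2-fold. Of all genes 27.3% rose, 19.1% at least 2-fold, so the first count was near that share and the second below it. The 2 subunits were Ndufa7 and Ndufs6. Ndufa7 was at 279 in NSC, 375, 541 and 426 in the NSC-CiPSC lines, 151 in IEC, 410.4 and 383 in the IEC-CiPSC lines and 346 in ESC. It was the only 1 of the 74 subunits whose NSC level lay below all 3 NSC-CiPSC lines, although the difference of 0.66 missed the threshold (adjusted p = 0.0672) except without NSC-CiPSC line 1 or line 2 (0.0390 and 0.0387). Its rise from IEC was 1.39 ± 0.24 (SE, adjusted p = 0.00952), and without IEC-CiPSC line 10 the adjusted p was 0.0520. Ndufs6, a zinc-binding subunit, was at 283 in NSC, 261, 272 and 251 in the NSC-CiPSC lines, 107 in IEC, 256 and 241 in the IEC-CiPSC lines and 211 in ESC. IEC alone was low. Ndufs6 rose from IEC by 1.21 ± 0.08 (SE, adjusted p = 0.000569). Its difference from NSC was -0.12 ± 0.07 (SE, adjusted p = 0.251), and it passed as a fall under the rescaled FPKM (-0.40, adjusted p = 0.00807) and quantile normalization (-0.23, 0.0384).

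Complex II, succinate dehydrogenase, links the citric acid cycle to the chain. Its 4 subunits all fell in the neural route, where 28.6% of all genes fell. Sdha, the flavoprotein that oxidises succinate, was at 470.3 in NSC, 128, 173 and 144 in the NSC-CiPSC lines, 142 in IEC, 189.7 and 165 in the IEC-CiPSC lines and 115 in ESC. Sdhb, the iron-sulfur subunit, was at 338 in NSC, 85.0, 106 and 100.4 in the NSC-CiPSC lines, 96.3 in IEC, 95.9 and 91.7 in the IEC-CiPSC lines and 85.8 in ESC. The changes from NSC were -1.67 ± 0.20 (SE, adjusted p = 0.00376) for Sdha and -1.79 ± 0.14 (SE, adjusted p = 0.00139) for Sdhb, with no overlap between NSC and any line.

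The membrane anchors Sdhc and Sdhd did not share 1 pattern. Sdhc was at 311 in NSC, 65.6, 104 and 80.8 in the NSC-CiPSC lines, 90.6 in IEC, 109.8 and 96.0 in the IEC-CiPSC lines and 105 in ESC, so IEC lay among the lines. It fell from NSC by 1.91 ± 0.28 (SE, adjusted p = 0.00701). Sdhd was at 258 in NSC, 136, 150.3 and 138 in the NSC-CiPSC lines, 79.0 in IEC, 136 and 131 in the IEC-CiPSC lines and 95.5 in ESC. The change of Sdhd was -0.86 ± 0.08 (SE, adjusted p = 0.00185) from NSC and 0.75 ± 0.08 (SE, adjusted p = 0.00255) from IEC, which made it the only complex II subunit that rose in the intestinal route. The IEC differences of Sdha, Sdhb and Sdhc were 0.31, -0.04 and 0.18, none past the threshold. The assembly factors Sdhaf1 and Sdhaf2 were below FPKM 14 in every library, without a call in either route.

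In complex III, the cytochrome c reductase, all 8 nuclear subunits fell from NSC and 7 rose from IEC. Of all genes 28.6% fell from NSC and 27.3% rose from IEC. Uqcrfs1, the Rieske iron-sulfur protein, was at 254 in NSC, 79.1, 91.7 and 84.2 in the NSC-CiPSC lines, 60.5 in IEC, 102 and 102 in the IEC-CiPSC lines and 76.8 in ESC. NSC lay above and IEC below every pluripotent library. The changes of Uqcrfs1 were -1.57 ± 0.10 (SE, adjusted p = 0.000734) in the neural and 0.74 ± 0.10 (SE, adjusted p = 0.00507) in the intestinal route.

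The exception in the intestinal route was Uqcrh, the hinge protein near cytochrome c1, at 950.1 in NSC, 385, 387 and 370.3 in the NSC-CiPSC lines, 352 in IEC, 326 and 317 in the IEC-CiPSC lines and 317 in ESC. IEC was within the range of the NSC-CiPSC lines and ESC for this gene, and the IEC-CiPSC lines were slightly lower (-0.13, adjusted p = 0.138). Uqcrh passed as a fall under quantile normalization, median-ratio size factors and the rescaled FPKM, by -0.40, -0.30 and -0.34. Uqcrc1, a large matrix-facing subunit, was at 356 in NSC, 175, 229.9 and 198 in the NSC-CiPSC lines, 88.0 in IEC, 194 and 189.5 in the IEC-CiPSC lines and 179 in ESC. It had the largest rise of the complex from IEC (1.11 ± 0.18 SE, adjusted p = 0.00745). The fall of Uqcrc1 from NSC, -0.83 ± 0.17 (SE, adjusted p = 0.0162), missed the threshold without NSC-CiPSC line 3 or either IEC-CiPSC line (adjusted p 0.0505 to 0.0550). The remaining members Uqcr10, Uqcr11, Uqcrb, Uqcrc2 and Uqcrq changed by -1.17 (Uqcr11) to -0.71 (Uqcrq) from NSC. The rise of Uqcr11 from IEC, 0.60, was lost under all 3 other scalings, and that of Uqcrc2, 0.74, under quantile normalization (adjusted p = 0.0623). Both were lost without NSC-CiPSC line 3 or either IEC-CiPSC line (adjusted p 0.101 to 0.158 and 0.0772 to 0.123).

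Complex IV, cytochrome c oxidase, passes the electrons to oxygen. Of its 10 widely expressed nuclear subunits 9 fell from NSC and 7 rose from IEC, where 28.6% and 27.3% of all genes did. Cox5a, which binds close to the catalytic core, was at 706 in NSC, 408, 542 and 448 in the NSC-CiPSC lines, 151 in IEC, 568 and 563 in the IEC-CiPSC lines and 398 in ESC. IEC was lowest by a wide margin and the lines lay between ESC and NSC. Cox5a rose by 1.90 ± 0.19 (SE, adjusted p = 0.00191) from IEC and fell by 0.61 ± 0.18 (SE, adjusted p = 0.0457) from NSC. The fall passed without NSC-CiPSC line 2 and was lost without any other line (adjusted p 0.0576 to 0.117).

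Cox7c was the subunit without a call in the neural route (-0.25 ± 0.08 SE, adjusted p = 0.0502), at 1169 in NSC, 952, 1025 and 971 in the NSC-CiPSC lines, 342 in IEC, 883 and 869 in the IEC-CiPSC lines and 767 in ESC. Its rise from IEC was 1.35 ± 0.08 (SE, adjusted p = 0.000451). Cox7a2, the widely expressed counterpart of Cox7a1, was at 349 in NSC, 209, 244 and 217 in the NSC-CiPSC lines, 127 in IEC, 225 and 221 in the IEC-CiPSC lines and 148 in ESC. It fell by 0.64 ± 0.10 (SE, adjusted p = 0.00893) and rose from IEC by 0.81 ± 0.11 (SE, adjusted p = 0.00489). Cox7a2l, a supercomplex factor counted with the assembly factors, differed from NSC by -0.64 ± 0.26 (SE, adjusted p = 0.10) and passed as a fall without NSC-CiPSC line 2 (adjusted p = 0.0313). By contrast Cox6a1, Cox8a and Ndufa4 fell from NSC by 1.24, 1.14 and 1.27 and did not pass in the intestinal route. There Cox8a was at the threshold (0.58 ± 0.18 SE, adjusted p = 0.0501) and passed without NSC-CiPSC line 1 or line 2 (adjusted p = 0.0338 and 0.0169). Ndufa4, first assigned to complex I and now placed in complex IV, was at 1217 in NSC, 507, 495 and 510.4 in the NSC-CiPSC lines, 382 in IEC, 432 and 448 in the IEC-CiPSC lines and 384 in ESC. Cox6b1, on the outer face of the complex, was at 1195 in NSC, 441, 513 and 463 in the NSC-CiPSC lines, 390.1 in IEC, 530.4 and 498 in the IEC-CiPSC lines and 384 in ESC. It fell by 1.34 ± 0.11 (SE, adjusted p = 0.00147) and rose from IEC by 0.40 ± 0.12 (SE, adjusted p = 0.0435), the latter lost under quantile normalization (0.13, adjusted p = 0.349), under both other scalings, and without either IEC-CiPSC line or NSC-CiPSC line 3 (adjusted p 0.0947 to 0.159).

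Complex V had 14 of 16 tested nuclear members falling from NSC and 10 rising from IEC, where 28.6% and 27.3% of all genes did. The 2 without a fall were Atp5g2 and Atp5s. Atp5b, the catalytic beta subunit, had the highest level of any nuclear member, at 2818 in NSC, 1519, 1891 and 1631 in the NSC-CiPSC lines, 689.9 in IEC, 1639 and 1613 in the IEC-CiPSC lines and 1559 in ESC. IEC lay below and NSC above all other libraries. The change of Atp5b was -0.75 ± 0.15 (SE, adjusted p = 0.0165) from NSC and 1.24 ± 0.16 (SE, adjusted p = 0.00421) from IEC, and that of its partner Atp5a1, the alpha subunit, -0.59 ± 0.13 (SE, adjusted p = 0.0227) and 1.01 ± 0.14 (SE, adjusted p = 0.00524). Both falls missed the threshold without NSC-CiPSC line 3 or either IEC-CiPSC line (adjusted p 0.0555 to 0.0589 for Atp5b and 0.0637 to 0.0651 for Atp5a1).

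The c subunit, which forms the rotor ring, is encoded by 3 genes whose mature proteins are the same. Atp5g3 had the highest level of the 3 in every library, at 1647 in NSC, 642, 632 and 603 in the NSC-CiPSC lines, 378 in IEC, 615 and 662 in the IEC-CiPSC lines and 514 in ESC. Atp5g1 was at 696 in NSC, 361, 336 and 319 in the NSC-CiPSC lines, 155 in IEC, 323 and 318 in the IEC-CiPSC lines and 411 in ESC. Atp5g2 was at 504 in NSC, 295, 413 and 342 in the NSC-CiPSC lines, 272 in IEC, 359 and 379 in the IEC-CiPSC lines and 308 in ESC. NSC was highest for all of them and IEC lowest. From NSC, Atp5g3 fell by 1.40 ± 0.08 (SE, adjusted p = 0.000608) and Atp5g1 by 1.04 ± 0.09 (SE, adjusted p = 0.00153), whereas the difference of Atp5g2, -0.54 ± 0.20 (SE, adjusted p = 0.0883), did not pass with all lines and did without NSC-CiPSC line 2 (adjusted p = 0.0275), with rescaled FPKM and under quantile normalization. From IEC, Atp5g1 rose by 1.05 ± 0.09 (SE, adjusted p = 0.00135) and Atp5g3 by 0.75 ± 0.08 (SE, adjusted p = 0.00282). Atp5g1 exceeded Atp5g2 in NSC, NSC-CiPSC line 1 and ESC and lay below it in the other 5 libraries. Atp5h, of the peripheral stalk, fell from NSC by 1.17 ± 0.09 (SE, adjusted p = 0.00136), and its IEC difference was 0.16 (adjusted p = 0.219).

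Of the 20 assembly factors 3 fell and 3 rose in the neural route, with a median change of -0.37, while in the intestinal route 10 rose, with a median of 0.49, close to the 37 of 74 subunits and their median of 0.44. Of all genes 28.6% fell and 27.3% rose in the neural route, and 27.3% rose in the intestinal one. The difference between the routes was negative for 16 of the 20 and passed for 6, all lower, where 17.6% of all genes were lower. The assembly factors and the subunits were not tested against each other. In the neural route Cox20, Cox14 and Ndufaf5 fell, and Cox17, Cox18 and Atp5sl rose, while in the intestinal route Cox16 alone of them fell. Cox17, the copper chaperone for complex IV, was at 153 in NSC, 282, 301 and 236 in the NSC-CiPSC lines, 99.4 in IEC, 303 and 309.9 in the IEC-CiPSC lines and 243 in ESC. The 5 lines and ESC were all above both source libraries, and the changes were 0.83 ± 0.15 (SE, adjusted p = 0.0135) and 1.61 ± 0.16 (SE, adjusted p = 0.00207). Cox18, which inserts mt-Co2 into the inner membrane, was at 7.03 in NSC, 15.0, 22.3 and 19.6 in the NSC-CiPSC lines, 8.45 in IEC, 20.0 and 16.4 in the IEC-CiPSC lines and 13.0 in ESC. It rose in both routes, by 1.30 ± 0.26 (SE, adjusted p = 0.0160) and 1.02 ± 0.27 (SE, adjusted p = 0.0342), calls that missed the threshold without NSC-CiPSC line 3 (adjusted p 0.0548 and 0.0769) and, for the intestinal route, without either IEC-CiPSC line (up to 0.127).

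Cox20, a chaperone of the same mt-Co2 protein, was at 84.9 in NSC, 15.8, 20.7 and 14.6 in the NSC-CiPSC lines, 30.7 in IEC, 19.8 and 22.6 in the IEC-CiPSC lines and 18.0 in ESC. NSC was highest, and the change from NSC was -2.27 ± 0.22 (SE, adjusted p = 0.00226). Of the 50-base windows of the Cox20 transcript 68.2% also occur in transcripts of other genes, 59.7% in Hnrnpu, so the level of this gene is uncertain. For Cox16 the share was 88.7%, nearly all with the overlapping gene model Gm20498. Atp5l, Atp5l2, Atp5o, Cox11 and Sdhaf1 also share at least 50% of their windows with other genes, and whether reads were counted by strand is not given in the sources used here. Ndufaf5, a complex I factor of the methyltransferase family, was at 49.7 in NSC, 18.1, 21.5 and 19.1 in the NSC-CiPSC lines, 9.89 in IEC, 19.6 and 20.1 in the IEC-CiPSC lines and 14.7 in ESC, with NSC highest and IEC lowest. It fell by 1.31 ± 0.12 (SE, adjusted p = 0.00182) and rose by 0.94 ± 0.12 (SE, adjusted p = 0.00446). Ndufaf1, a factor of early membrane arm assembly, rose from IEC by 1.26 ± 0.09 (SE, adjusted p = 0.000863) from 11.2 to 28.3 and 28.1, and was at 23.2 in NSC and 25.9, 29.1 and 27.6 in the NSC-CiPSC lines.

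The tissue isoforms of complex IV varied most, among the lines as well as between groups. Cox7a1, the form of heart and skeletal muscle, was at 68.1 in NSC, 24.5, 132 and 91.4 in the NSC-CiPSC lines, 3.08 in IEC, 83.6 and 71.8 in the IEC-CiPSC lines and 51.0 in ESC. Only IEC was low, and NSC lay within the range of the NSC-CiPSC lines, where line 1 was lowest. Cox7a1 rose from IEC by 4.27 ± 1.07 (SE, adjusted p = 0.0290), a call lost without NSC-CiPSC line 3 or either IEC-CiPSC line (adjusted p 0.0627 to 0.108). Its neural difference was -0.02 ± 1.01 (SE, adjusted p = 1.00). Without NSC-CiPSC line 1 the difference between the routes passed, at -3.59 (adjusted p = 0.0117).

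Cox6b2, known as the testis form of Cox6b, was at 169 in NSC, 66.5, 134 and 124 in the NSC-CiPSC lines, 20.8 in IEC, 213 and 172 in the IEC-CiPSC lines and 135 in ESC. Again IEC was lowest and line 1 was the lowest of the 5 lines. It rose from IEC by 3.14 ± 0.49 (SE, adjusted p = 0.00725) and differed from NSC by -0.71 ± 0.46 (SE, adjusted p = 0.262). Ndufa4l2, a paralogue of Ndufa4 known as a hypoxia target, was at 0.270 in NSC, 0.388, 29.0 and 13.4 in the NSC-CiPSC lines, 2.25 in IEC, 55.3 and 35.5 in the IEC-CiPSC lines and 9.13 in ESC. NSC-CiPSC line 1 stood with NSC near 0, and the other 4 lines were at 13.4 to 55.3. Neither difference passed with all lines (2.73 ± 1.89 (SE, adjusted p = 0.285) and 3.80 ± 2.00 (SE, adjusted p = 0.173)). Without NSC-CiPSC line 1 both did, at 4.03 (adjusted p = 0.0154) and 3.80 (adjusted p = 0.0159). Leaving out the line nearest NSC favours both calls. The intestinal difference stayed at 3.80, since that line enters it only through the shared spread.

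The remaining isoforms were low. Cox8b and Cox6a2, both of striated muscle, were at 6.09 and 1.59 in NSC and 3.74 and 2.10 in IEC. Cox8b was listed at 0 in all 5 lines and ESC, and Cox6a2 at 0 in the NSC-CiPSC lines and ESC and at 0.419 and 0.210 in the IEC-CiPSC lines. Both fell in both routes, where lines that are all at 0 have no spread of their own. Cox8c, a testis form, was listed at 0 in NSC and IEC and at 2.22, 1.22 and 1.43 in the NSC-CiPSC lines, where it rose (adjusted p = 0.0151). Cox7b2 did not exceed 2.27. Cox4i2, the lung form of subunit 4, was at 0.590 in NSC, 0.565, 4.15 and 2.94 in the NSC-CiPSC lines, 4.54 in IEC, 3.08 and 3.27 in the IEC-CiPSC lines and 2.85 in ESC, with line 1 at the level of NSC. Without that line Cox4i2 rose from NSC (1.50, adjusted p = 0.0134), a call that leaving out the line nearest NSC favours. The sum over 11 skeletal and cardiac muscle markers was FPKM 1.92 in NSC, 175 in IEC and at most 5.40 in the lines. That over 6 germline and testis markers was 3.02 in NSC, 57.3, 159 and 123 in NSC-CiPSC lines 1, 2 and 3, 0.525 in IEC, 32.0 and 22.7 in the IEC-CiPSC lines and 35.7 in ESC. Whether either bears on the isoforms was not tested.

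**Figure D2:**
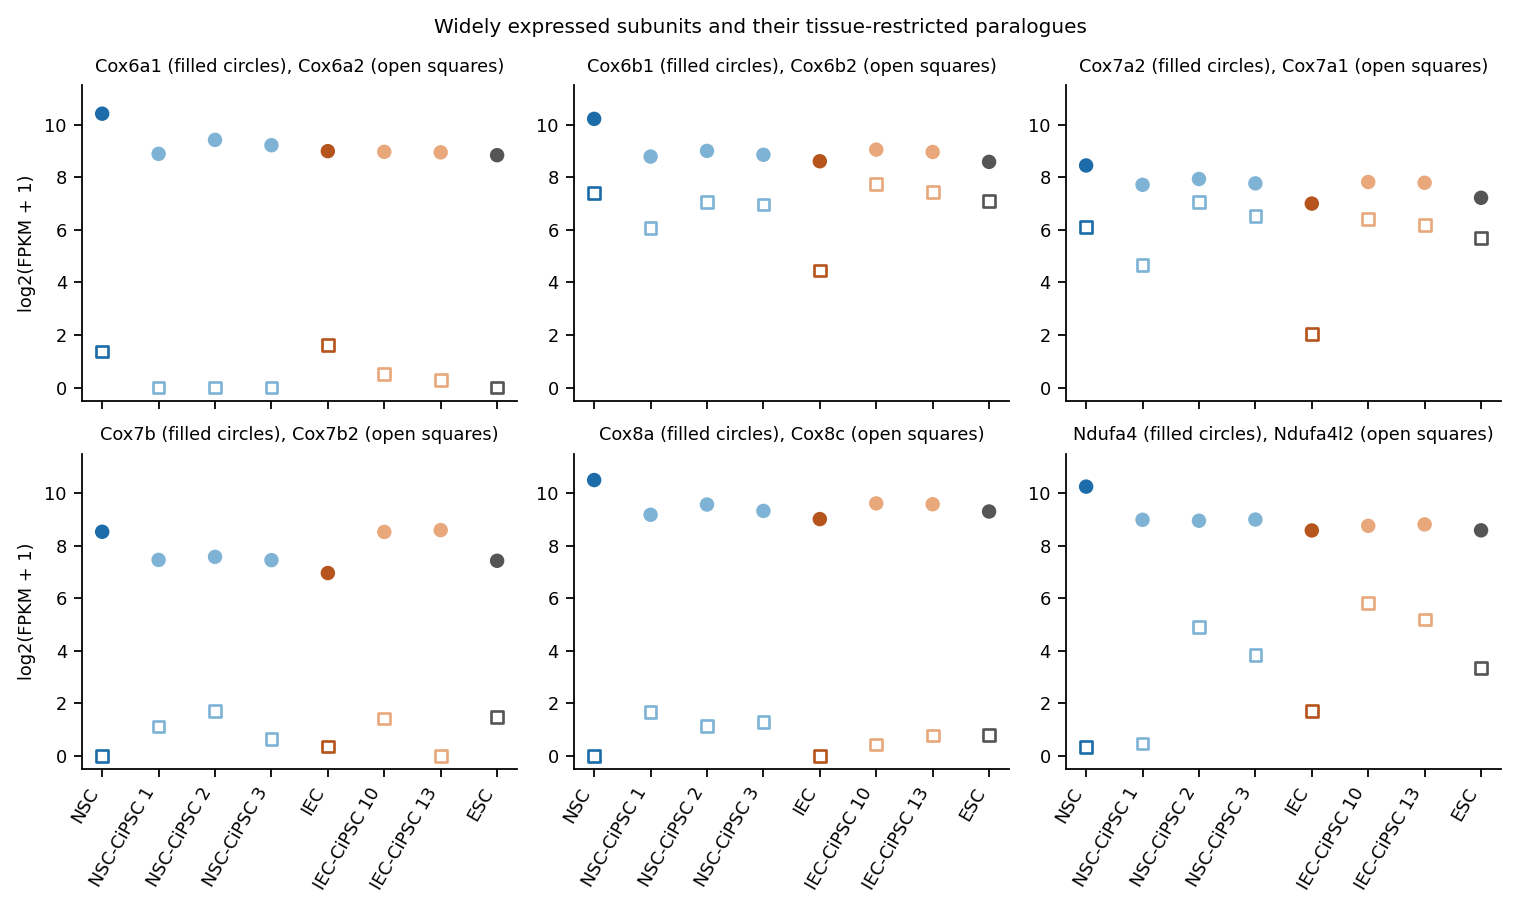
Level of 6 widely expressed subunits (filled circles) and of a tissue-restricted paralogue of each (open squares), as log2(FPKM + 1), in the 8 libraries. The widely expressed gene of each pair lies above its paralogue in every library, and Ndufa4l2 spans 0.388 to 29.0 FPKM among the 3 NSC-CiPSC lines and Cox7a1 24.5 to 132.

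Agreement among the 3 NSC-CiPSC lines differed by class. The coefficient of variation of FPKM had a median of 9.06% over 73 subunits with a mean FPKM of at least 10, with a range of 1.65% to 25.8%. It was 10.8% over 18 assembly factors, 65.6% over 3 isoforms and 52.9% over the 13 mt- protein-coding genes. Over all 6829 genes at that level the median was 12.2%.

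The difference between the routes was tested directly, as the neural change minus the intestinal change. It was negative for 95 of the 102 nuclear members and passed for 73, all lower, where 17.6% of all genes were lower and 20.6% higher. At least 2-fold differences numbered 65, against 12.9% of all genes. The count of nuclear members with a higher value was 0 by limma (1 at an unadjusted p under 0.05). There were 34 nuclear members that fell in the neural and rose in the intestinal route. The difference passed for each of these 34, which opposite calls under a shared spread nearly ensure, so this adds no support. The share of all genes with such opposite calls was not computed. Atp5sl, Cox17 and Cox18 rose in both routes, and Cox6a2 and Cox8b fell in both. Atp5sl rose from IEC by 0.52 ± 0.13 (SE, adjusted p = 0.0280), a call lost without either IEC-CiPSC line (adjusted p 0.0905 to 0.111), with rescaled FPKM and with median-ratio size factors. The difference between the NSC and IEC libraries enters this test in full, and its median over the nuclear members was 1.47, against 0 over all genes.

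Among the largest differences were those of Cox6b2 (-3.84 ± 0.67 SE, adjusted p = 0.0166), Ndufc2 (-2.78 ± 0.31 SE, adjusted p = 0.00466), Cox7b (-2.63 ± 0.11 SE, adjusted p = 0.000256), Cox5a (-2.51 ± 0.26 SE, adjusted p = 0.00373) and Uqcrfs1 (-2.31 ± 0.14 SE, adjusted p = 0.000759). Cox7b is X-linked, and X-linked genes had a median of -0.58 in this test, against 0.02 over all genes. By complex, 35 of 44 nuclear members of complex I, 4 of 6 of complex II, 8 of 8 of complex III, 13 of 28 of complex IV and 13 of 16 of complex V passed, with median differences of -1.37, -1.68, -1.80, -1.12 and -1.53. Without IEC-CiPSC line 10 the difference of Cox6b2 had an adjusted p of 0.0696, and without line 13 one of 0.0600.

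**Figure D3:**
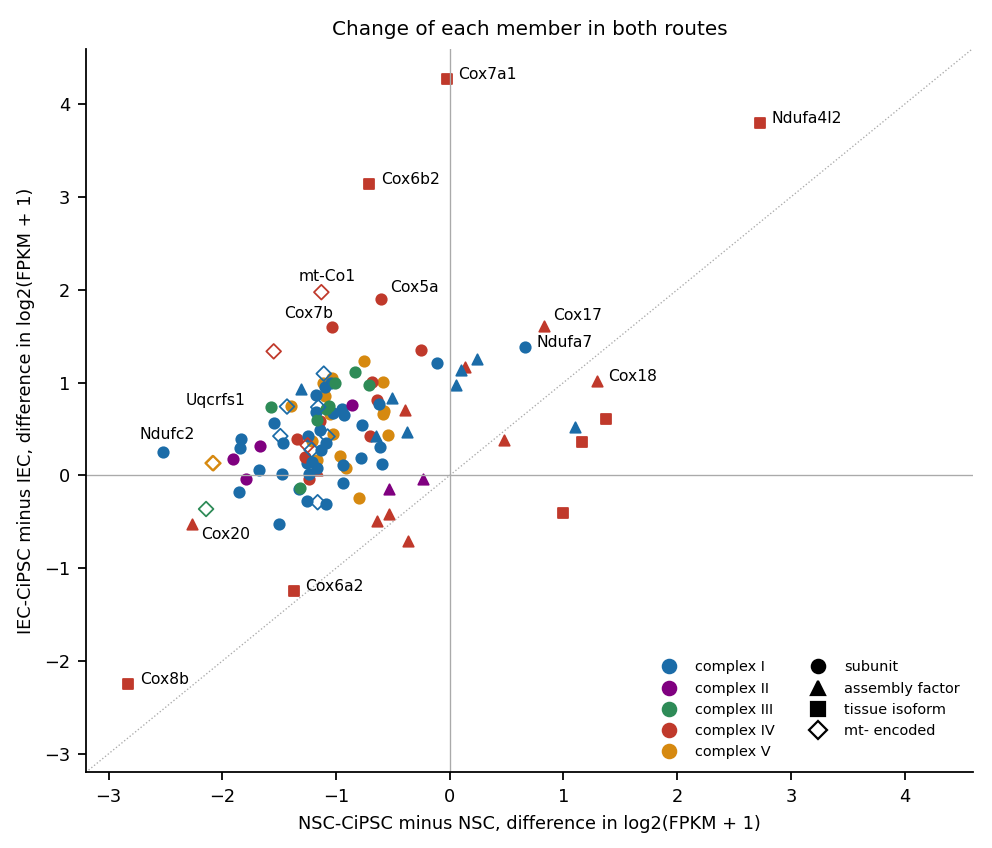
Difference in log2(FPKM + 1) of each tested protein-coding member from NSC to NSC-CiPSC (x axis) and from IEC to IEC-CiPSC (y axis), with complexes by colour and classes by symbol. The dotted line marks equal change in both routes; most subunits lie in the upper left, left of it, while Cox17 and Cox18 lie in the upper right and Cox6a2 and Cox8b, which are at or near 0 FPKM in the lines, in the lower left.

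The comparison with ESC asks where the lines stand against an embryonic stem cell line, with ESC as 1 library of another strain. Few members differed. For NSC-CiPSC 3 of 102 nuclear members were higher than ESC and 0 lower by limma (31 and 2 at an unadjusted p under 0.05), where 1.75% and 2.59% of all genes passed. These were Ndufb10 (0.50), Sdhd (0.56) and Ndufa3 (0.73), and none was 2-fold (background 0.946% higher and 1.86% lower). Ndufa3, an accessory subunit of complex I, was at 741 in NSC, 336, 378 and 330.1 in the NSC-CiPSC lines, 409 in IEC, 331 and 327 in the IEC-CiPSC lines and 208 in ESC, with ESC lowest of all libraries. Sdhd passed without NSC-CiPSC line 1 and was lost without any other line (adjusted p 0.0690 to 0.150). The count of members higher than ESC was 6 without NSC-CiPSC line 1 and 0 without NSC-CiPSC line 3 or either IEC-CiPSC line. The median difference of the nuclear members was 0.19, against 0.02 over all genes. By position alone, ESC lay below all 5 lines for 36 of the 74 subunits, within their range for 33 and above all of them for 5.

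For IEC-CiPSC against ESC, 3 nuclear members were higher, all at least 2-fold, and 0 lower by limma (23 and 5 at an unadjusted p under 0.05). Over all genes 2.4% were higher and 2.5% lower, 1.63% and 1.73% at least 2-fold. The 3 were Cox7b, Ndufa1 and Ndufs5. The count was 7 without NSC-CiPSC line 1, 5 without line 2, 1 without IEC-CiPSC line 13 and 0 without IEC-CiPSC line 10 or NSC-CiPSC line 3. Between the origins, NSC-CiPSC against IEC-CiPSC, 5 nuclear members were higher and 3 lower, where 4.49% of all genes were higher and 5.05% lower. The higher ones were Atp5sl, Ndufb10, Cox5b, Ndufs1 and Ndufa10, by 0.28 to 0.56, none of them 2-fold (background 1.56%). The call of Atp5sl was lost without any 1 line (adjusted p 0.0717 to 0.244). Of the 5, 3 passed without NSC-CiPSC line 1 and 0 without any other line.

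The 3 members lower in NSC-CiPSC, Ndufa1, Cox7b and Ndufb11, are the 3 members on the X chromosome, 2 of them at least 2-fold (background 2.76%). Cox7b, a small complex IV subunit, was at 369 in NSC, 175, 190.1 and 174 in the NSC-CiPSC lines, 124 in IEC, 368 and 386 in the IEC-CiPSC lines and 171 in ESC. Ndufa1, an essential membrane arm subunit, was at 318 in NSC, 134, 158 and 154 in the NSC-CiPSC lines, 174 in IEC, 332 and 342 in the IEC-CiPSC lines and 148 in ESC, with NSC-CiPSC line 1 lowest. Ndufb11, of the same arm, was at 280.4 in NSC, 89.0, 113 and 103 in the NSC-CiPSC lines, 135 in IEC, 181 and 166 in the IEC-CiPSC lines and 90.4 in ESC. In each case both IEC-CiPSC lines lay above ESC and all NSC-CiPSC lines, which were near ESC. The difference was -1.06 ± 0.06 (SE, adjusted p = 0.00697) for Cox7b, -1.18 ± 0.09 (SE, adjusted p = 0.0119) for Ndufa1 and -0.77 ± 0.12 (SE, adjusted p = 0.0393) for Ndufb11. The count of lower members was 0 without NSC-CiPSC line 3 or IEC-CiPSC line 10 and 1 without IEC-CiPSC line 13.

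X-linked genes as a whole were lower as well. Of 666 tested, 33% were lower in NSC-CiPSC than in IEC-CiPSC and 1.65% higher. At least 2-fold differences were found for 20.6% and 0.901%, with a median difference of -0.64 against 0.03 over all genes. The calls of Ndufa1 and Cox7b missed the threshold without NSC-CiPSC line 3 or either IEC-CiPSC line (adjusted p 0.0707 to 0.116 and 0.0548 to 0.0847). The median of X-linked genes was 0.55 in IEC-CiPSC against IEC, 0.53 in IEC-CiPSC against ESC and -0.58 in the difference between the routes. Over all genes these medians were -0.03, 0 and 0.02. Against ESC, Ndufa1 and Cox7b were higher in IEC-CiPSC by 1.18 ± 0.12 (SE, adjusted p = 0.0246) and 1.13 ± 0.08 (SE, adjusted p = 0.0115). Both lost that call without NSC-CiPSC line 3 or either IEC-CiPSC line, and Ndufa1 also without NSC-CiPSC line 2 (adjusted p 0.0552 to 0.151 and 0.0602 to 0.0936).

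Ndufs5, an accessory subunit of complex I, stood 1.96 ± 0.22 (SE, adjusted p = 0.0280) above ESC in IEC-CiPSC, a value that changes when a near-identical copy is counted with it. The processed copy BC002163 on chromosome 16 is identical to the Ndufs5 transcript over 214 bases of coding sequence. The stretch spans an exon junction of Ndufs5 (chr4:123712824-123715974, minus strand, from both sides of an intron), which the copy (chr16:42955736-42955949, plus strand) lacks. Reads inside the stretch match both genes, so it is shown here, in GENCODE M21 sequence on mm10, with the 10 bases on each side of the junction in capitals:
Ndufs5 and BC002163: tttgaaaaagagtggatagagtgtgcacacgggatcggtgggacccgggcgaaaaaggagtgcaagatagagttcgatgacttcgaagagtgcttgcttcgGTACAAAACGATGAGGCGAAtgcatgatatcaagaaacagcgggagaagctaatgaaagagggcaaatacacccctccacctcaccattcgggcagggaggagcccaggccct

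Ndufs5 itself was at 409.6 in NSC, 102, 139 and 105 in the NSC-CiPSC lines, 133 in IEC, 174 and 177 in the IEC-CiPSC lines and 44.4 in ESC. The copy was at 16.0 in NSC, 52.2, 70.3 and 59.2 in the NSC-CiPSC lines, 6.43 in IEC, 7.37 and 9.86 in the IEC-CiPSC lines and 99.9 in ESC. ESC had the lowest Ndufs5 and the highest BC002163 level. For BC002163 the NSC-CiPSC lines lay between ESC and the other libraries, and for Ndufs5 lines 1 and 3 lay below IEC and line 2 above it. The copy made up 69.3% of their summed level in ESC, 33.6% to 36.2% in the NSC-CiPSC lines and 3.76% to 5.27% in the other libraries. Summed over both entries, the level was 426 in NSC, 154, 209 and 164 in the NSC-CiPSC lines, 139.5 in IEC, 181 and 187 in the IEC-CiPSC lines and 144 in ESC, and IEC-CiPSC stood 0.35 above ESC (adjusted p = 0.387). The sum adds FPKM of transcripts of different length. From NSC to NSC-CiPSC Ndufs5 fell by 1.84 ± 0.20 (SE, adjusted p = 0.00322), and the sum changed by -1.29 (adjusted p = 0.00743). Without NSC-CiPSC line 3 or either IEC-CiPSC line the difference of Ndufs5 from ESC missed the threshold (adjusted p 0.0926 to 0.161).

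**Figure D4:**
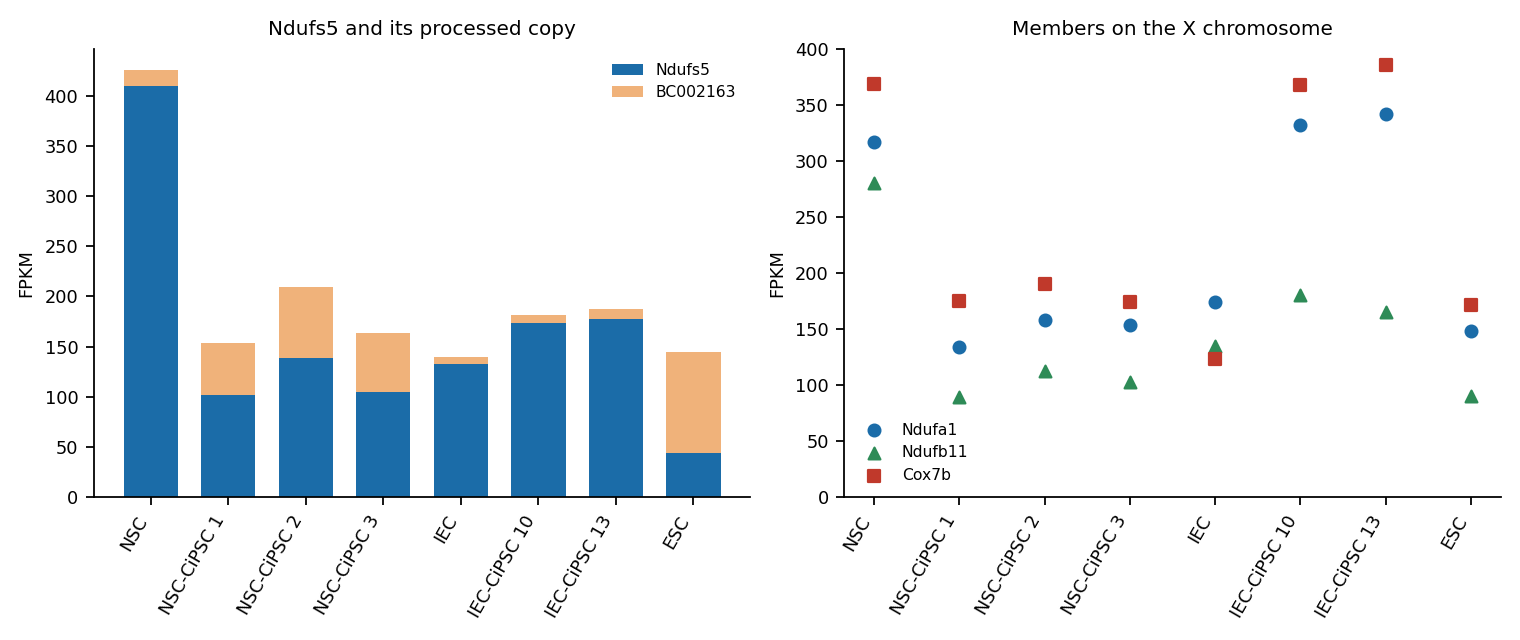
Left, FPKM of Ndufs5 with that of its processed copy BC002163 stacked on it, in each of the 8 libraries. Right, FPKM of the 3 X-linked members; both IEC-CiPSC lines are at 332 or more for Ndufa1 and 368 or more for Cox7b, above ESC and the NSC-CiPSC lines.

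Promoters were searched for 3 motifs of factors known to act on respiratory chain genes, since the subunits moved together. RefSeq promoters (GRCm38.p6, 250 bases before to 50 after each start) were matched for 82 of the 103 nuclear members. The motif of NRF1, GCGCANGCG on either strand, occurred in 22 of the 82 (26.8%), and in 7.03% of all 27025 genes. It was found in 20 of 62 subunits, 2 of 16 assembly factors and 0 of 4 tissue isoforms. None of the 3 motifs contains another. The ETS motif CCGGAAGT occurred in 9 of 82 (11.0%, against 4.31% of all genes) and the YY1 motif AAGATGGCG in 8 (9.76%, against 1.64%). The 27025 genes were not limited to those expressed in these libraries, and the share over expressed genes was not computed. Ndufc2, Ndufa12, Sdhb, Uqcrfs1, Cox6b1 and Ndufa4 fell from NSC and held none of the 3 motifs. Whether matches go with falls was not tested. Ndufa5, Sdha and Atp5h are shown because they fell from NSC and hold matches, and Cox7a1 as an isoform without a match. Each is the 250 bases before a RefSeq start, 5′ to 3′ on the gene's strand, with matches to NRF1 and ETS in capitals. Ndufa5 has 2 such starts, and the 1 nearest the 5′ end of its entry is used. Its window lies inside the Ndufa5 entry of these data (chr6:24518666-24528013). The ETS match of Atp5h is on the other strand and so reads as its reverse complement.
Ndufa5, chr6:24527691-24527940, minus strand: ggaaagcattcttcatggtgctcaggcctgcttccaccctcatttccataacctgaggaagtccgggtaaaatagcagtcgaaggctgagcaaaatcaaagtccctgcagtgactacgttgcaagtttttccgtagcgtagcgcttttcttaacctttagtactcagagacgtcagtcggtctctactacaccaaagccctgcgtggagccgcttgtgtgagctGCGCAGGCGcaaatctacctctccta
Sdha, chr13:74350241-74350490, minus strand: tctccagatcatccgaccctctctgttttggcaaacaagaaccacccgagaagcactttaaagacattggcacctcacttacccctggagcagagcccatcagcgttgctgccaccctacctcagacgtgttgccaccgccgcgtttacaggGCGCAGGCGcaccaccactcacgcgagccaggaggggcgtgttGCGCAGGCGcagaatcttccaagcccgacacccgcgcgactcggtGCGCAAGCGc
Atp5h, chr11:115419920-115420169, minus strand: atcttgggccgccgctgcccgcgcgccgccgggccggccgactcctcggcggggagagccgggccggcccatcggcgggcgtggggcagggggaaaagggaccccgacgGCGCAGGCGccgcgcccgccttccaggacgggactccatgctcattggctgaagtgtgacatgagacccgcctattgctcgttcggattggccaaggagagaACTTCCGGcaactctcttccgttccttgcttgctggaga
Cox7a1, chr7:30183921-30184170, plus strand: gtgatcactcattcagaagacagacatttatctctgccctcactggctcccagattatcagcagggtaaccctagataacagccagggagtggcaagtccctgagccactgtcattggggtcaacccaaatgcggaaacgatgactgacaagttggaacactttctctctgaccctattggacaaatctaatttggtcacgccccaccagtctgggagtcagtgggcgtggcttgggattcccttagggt

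The upstream window of Sdha held 3 matches to the NRF1 motif, that of Ndufa5 1 and that of Atp5h 1 beside its ETS match. A match is a description of the letters and not of binding, which was not measured. The window of Ndufs6, whose difference from NSC did not pass, holds the NRF1 and YY1 motifs too. Members without a matched promoter include Atp5a1, Atp5f1, Atp5l2, Atp5s, Atp5sl, Cox17, Cox18, Cox4i2, Cox6a2, Cox6c, Cox8c, Ndufa2, Ndufa4l2, Ndufaf6, Ndufb9, Ndufs1, Sdhc, Uqcrb, Uqcrc2 and Uqcrq.

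The mt- encoded genes varied more between lines than the nuclear ones. Their share of the FPKM sum was 11.6% in NSC, 5.61%, 1.94% and 3.85% in the NSC-CiPSC lines, 4.64% in IEC, 6.03% and 6.87% in the IEC-CiPSC lines and 4.88% in ESC. NSC was highest. NSC-CiPSC line 2 was lowest and line 1 higher than IEC, so the NSC-CiPSC lines spanned the levels of IEC and ESC, while both IEC-CiPSC lines lay above them. Over lines the share was 3.80% ± 1.84 (SD, n = 3) in NSC-CiPSC and 6.45% ± 0.598 (SD, n = 2) in IEC-CiPSC.

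All 13 mt- protein-coding genes had lower means in NSC-CiPSC than in NSC, with a median difference of -1.25, against 0.03 over all genes. Only mt-Co3 of the 13 passed, where 28.6% of all genes fell. Mt-Co3, the third core subunit of complex IV, was at 7576 in NSC, 3935, 2389 and 3440.5 in the NSC-CiPSC lines, 3920.4 in IEC, 4644 and 5198 in the IEC-CiPSC lines and 3662 in ESC. Its change was -1.25 ± 0.33 (SE, adjusted p = 0.0351), lost without NSC-CiPSC line 3 or either IEC-CiPSC line (adjusted p 0.0832 to 0.0875) and under quantile normalization (0.0866). Without NSC-CiPSC line 2, mt-Co1, mt-Co2, mt-Nd5 and mt-Nd6 also fell from NSC, with changes of -0.83, -1.12, -0.74 and -0.74. Without line 1, mt-Atp6 and mt-Atp8 did, with changes of -2.47 and -2.51. Standard errors of the mt- genes in this comparison had a median of 0.67, against 0.12 for the nuclear subunits. Nuclear and mt- levels did not go together among the NSC-CiPSC lines. Line 2 had the highest nuclear share of the 3 lines, 3.04%, and the lowest mt- share, and line 1 had the lowest nuclear share, 2.68%, and the highest mt- share. Both shares have the same total, so a low mt- share by itself raises the nuclear one. Over entries neither mt- encoded nor selenoprotein, the nuclear share was 3.11%, 3.38% and 3.21% in lines 1, 2 and 3, in the same order.

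The catalytic subunit of complex IV that binds oxygen, mt-Co1, was at 8225 in NSC, 4539, 2487 and 4711 in the NSC-CiPSC lines, 2562 in IEC, 10104 and 10043 in the IEC-CiPSC lines and 3057 in ESC. The IEC-CiPSC lines were the highest of all libraries, above NSC, and IEC and NSC-CiPSC line 2 the lowest. Mt-Co1 was the only mt- protein-coding gene that passed from IEC or between the routes, where 27.3% of all genes rose and 17.6% were lower. Its change from IEC was 1.97 ± 0.46 (SE, adjusted p = 0.0235) and the difference between the routes -3.10 ± 0.64 (SE, adjusted p = 0.0251). The first was lost without either IEC-CiPSC line (adjusted p 0.0936 to 0.0939), the second without these lines or NSC-CiPSC line 3 (0.0514 to 0.0932), and both under quantile normalization (0.0561 and 0.0549).

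The makeup of the mt- protein-coding signal differed between libraries as well. The length correction of FPKM weighs on mt-Atp8, 204 bases long, which held 19.8% (NSC-CiPSC line 3) to 30.6% (ESC) of this signal. The share of mt-Co1 in it was 10.6% in NSC, 11.1%, 16.9% and 16.6% in the NSC-CiPSC lines, 8.50% in IEC, 22.8% and 19.8% in the IEC-CiPSC lines and 9.14% in ESC. The share of mt-Cytb, the complex III subunit near the other end of the same strand, was 6.26% in NSC, 6.04%, 3.02% and 4.25% in the NSC-CiPSC lines, 5.34% in IEC, 2.33% and 3.00% in the IEC-CiPSC lines and 4.74% in ESC. In FPKM mt-Cytb was at 4851 in NSC, 2468, 444 and 1206 in the NSC-CiPSC lines, 1611 in IEC, 1033 and 1521 in the IEC-CiPSC lines and 1584 in ESC, and its change from NSC was -2.14 ± 1.03 (SE, adjusted p = 0.150). The level of mt-Co1 over that of mt-Cytb was 1.70 in NSC, 1.84, 5.60 and 3.91 in the NSC-CiPSC lines, 1.59 in IEC, 9.78 and 6.60 in the IEC-CiPSC lines and 1.93 in ESC. This ratio was below 2 in both source libraries, ESC and NSC-CiPSC line 1, and at or above 3.91 in the other 4 lines.

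**Figure D5:**
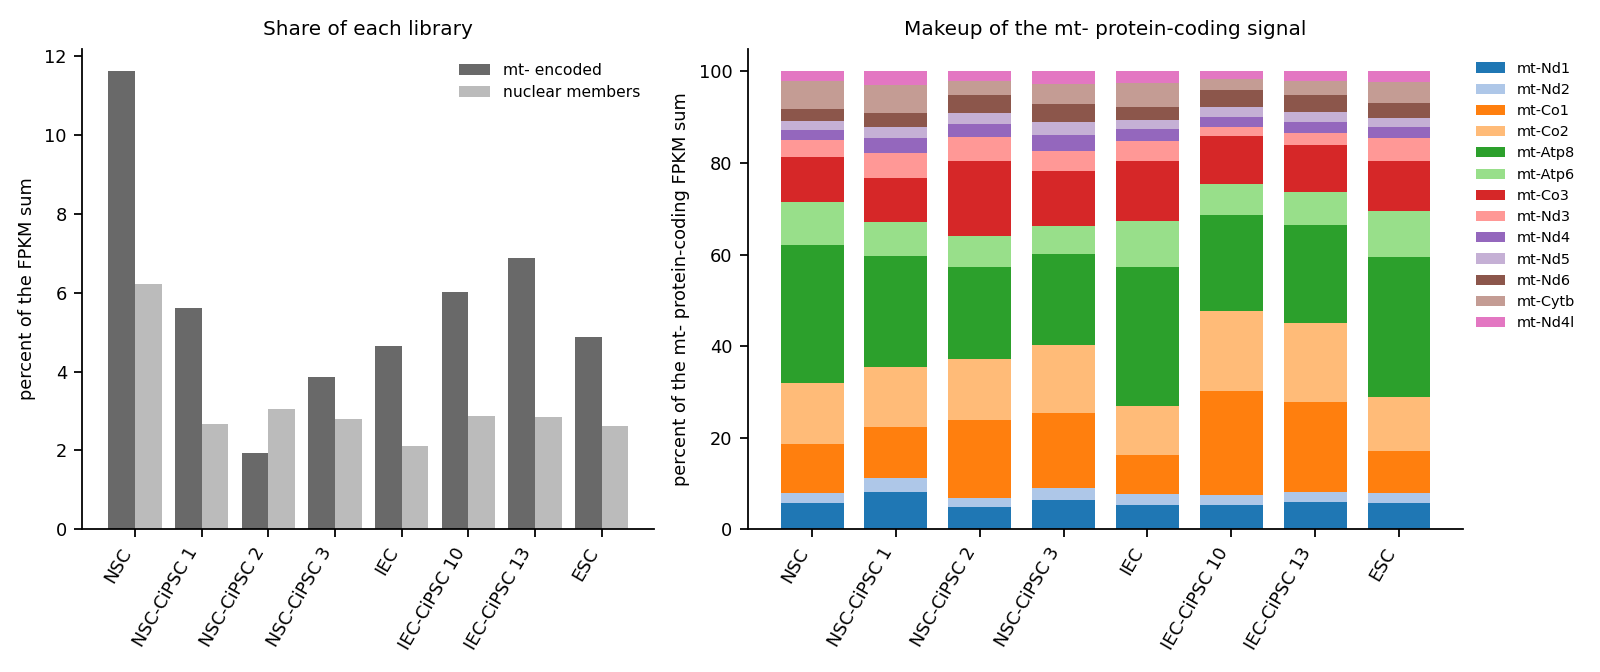
Left, share of the FPKM sum held by all mt- encoded entries (dark bars) and by the nuclear members (light bars) in each library. Right, share of each mt- protein-coding gene in their summed FPKM, stacked in genome order with mt-Nd4l last; the band of mt-Co1 widens from 8.50% in IEC to 22.8% in IEC-CiPSC line 10.

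For all 7 mt- subunits of complex I, NSC was the highest library and NSC-CiPSC line 2 the lowest. Mt-Nd1 was at 4355 in NSC, 3279.9, 710.5 and 1805 in the NSC-CiPSC lines, 1590.4 in IEC, 2381 and 2974 in the IEC-CiPSC lines and 1885 in ESC. Mt-Nd2 was at 1818 in NSC, 1285, 293 and 717 in the NSC-CiPSC lines, 728 in IEC, 876 and 1089.5 in the IEC-CiPSC lines and 782 in ESC. Mt-Nd5 was at 1479.6 in NSC, 942, 372 and 832 in the NSC-CiPSC lines, 626 in IEC, 968 and 1122 in the IEC-CiPSC lines and 691 in ESC.

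Mt-Nd6, the single protein gene read from the other strand, was at 2003 in NSC, 1286, 558 and 1115 in the NSC-CiPSC lines, 834 in IEC, 1644 and 1939 in the IEC-CiPSC lines and 1029 in ESC. Mt-Nd3 was at 2863 in NSC, 2223, 775 and 1214 in the NSC-CiPSC lines, 1338 in IEC, 884 and 1355 in the IEC-CiPSC lines and 1671 in ESC. Mt-Nd4 was at 1751 in NSC, 1387, 411 and 1008 in the NSC-CiPSC lines, 779 in IEC, 933 and 1164 in the IEC-CiPSC lines and 807 in ESC. IEC-CiPSC line 10 was close to NSC-CiPSC line 2 for mt-Nd3 but well above it for mt-Nd6. No mt- complex I gene passed in any of the 6 comparisons with all lines, whereas without NSC-CiPSC line 2 mt-Nd5 and mt-Nd6 passed in both routes. Mt-Co2, the subunit that receives electrons from cytochrome c, was at 10380.1 in NSC, 5381, 1968 and 4219.9 in the NSC-CiPSC lines, 3259 in IEC, 7751 and 8747 in the IEC-CiPSC lines and 3952 in ESC. The IEC-CiPSC lines stood between NSC and all others.

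The complex V genes mt-Atp8 and mt-Atp6 are read from 1 shared RNA. Mt-Atp8 was at 23281 in NSC, 9892, 2967 and 5622 in the NSC-CiPSC lines, 9136 in IEC, 9273 and 10823 in the IEC-CiPSC lines and 10231 in ESC. Mt-Atp6 was at 7276 in NSC, 2986, 999 and 1713 in the NSC-CiPSC lines, 3023 in IEC, 3031 and 3616 in the IEC-CiPSC lines and 3344 in ESC. The ratio between them was 2.97 to 3.31 in all libraries. FPKM are scaled to transcript length, 204 bases for mt-Atp8 and 681 for mt-Atp6, so this ratio need not be a difference in RNA. The genes share 43 bases of the mitochondrial genome (chrM:7927-7969, plus strand), and mt-Nd4l and mt-Nd4 share 7 (chrM:10167-10173, plus strand), so reads there belong to both. The sequences, from GENCODE M21 transcripts on mm10, have the start codon of the second gene in capitals:
mt-Atp8 and mt-Atp6: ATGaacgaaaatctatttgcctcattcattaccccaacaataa
mt-Nd4l and mt-Nd4: ATGctaa

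Nuclear copies of mitochondrial DNA limit how far single mt- genes can be read. Of the 297 bases of mt-Nd4l, 294 are identical to the nuclear copy Gm10222 on chromosome 1 (chr1:24612407-24612700, minus strand). Gm10222 was listed at the same level as mt-Nd4l in every library, with ratios of 0.997 to 1.00, for example 1582 and 1587 in NSC. Levels of the 2 entries therefore cannot be told apart. Mt-Co2, mt-Co3, mt-Atp6 and mt-Nd3 share 98.0% to 100% of their 50-base windows with annotated nuclear copies, mt-Nd4 62.2%, mt-Co1 51.1%, mt-Nd2 8.19% and mt-Nd5 7.61%. For mt-Cytb, mt-Nd1, mt-Nd6 and mt-Atp8 no window was shared with an annotated transcript. Nuclear copies outside the annotation were not searched for, so these genes may have copies too. The rRNAs mt-Rnr1 and mt-Rnr2 were at 156 to 327 and 113 to 619, without a call.

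Other genes of the pathway were read from 4 lists, with 5 of their symbols not found. Of 27 electron carriers and assembly factors outside the rule, 10 fell and 2 rose from NSC, and 10 rose and 1 fell from IEC. Over all genes 28.6% fell and 27.3% rose from NSC, and 27.3% rose and 33.2% fell from IEC. The medians of the list were -0.44 and 0.45, against 0.03 and -0.03 over all genes. Cycs, the mobile carrier cytochrome c, was at 411 in NSC, 119.6, 107 and 134 in the NSC-CiPSC lines, 40.3 in IEC, 97.9 and 91.4 in the IEC-CiPSC lines and 87.7 in ESC. Like the subunits it was highest in NSC and lowest in IEC, with changes of -1.77 ± 0.14 (SE, adjusted p = 0.00132) and 1.21 ± 0.15 (SE, adjusted p = 0.00347). Cyc1, the cytochrome c1 of complex III, rose from IEC by 1.13 ± 0.18 (SE, adjusted p = 0.00725).

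Of 17 tested genes that transcribe and maintain the mitochondrial genome, 6 rose and 1 fell from NSC, a share of rises near the 27.3% of all genes. From IEC 11 rose, where 27.3% of all genes did. The medians were 0.54 and 0.95. Tfam, which packages mitochondrial DNA and starts its transcription, was at 30.6 in NSC, 70.9, 93.6 and 78.8 in the NSC-CiPSC lines, 29.5 in IEC, 88.9 and 79.6 in the IEC-CiPSC lines and 83.1 in ESC. Ssbp1, the single-strand binding protein, was at 42.9 in NSC, 105, 117 and 116 in the NSC-CiPSC lines, 34.4 in IEC, 107 and 109.5 in the IEC-CiPSC lines and 102 in ESC. Both source libraries lay below all pluripotent ones. Tfam rose by 1.37 ± 0.18 (SE, adjusted p = 0.00500) and 1.48 ± 0.19 (SE, adjusted p = 0.00408), and Ssbp1 by 1.37 ± 0.08 (SE, adjusted p = 0.000690) and 1.62 ± 0.09 (SE, adjusted p = 0.000341). From IEC the largest rises of the list were those of Pnpt1 (1.98 ± 0.27 SE, adjusted p = 0.00510), a mitochondrial RNA nuclease, and Tbrg4 (1.80 ± 0.28 SE, adjusted p = 0.00756).

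Of 11 biogenesis regulators tested, 7 rose and 4 fell from NSC, and 5 rose and 3 fell from IEC. The falls were near the shares of all genes, 28.6% and 33.2%. The rises were above the 27.3% of all genes in both routes. Ppargc1a, the coactivator PGC-1alpha, was at 27.2 in NSC and 2.05 in IEC and at 0 or 0.0429 in the lines and ESC. Nrf1, the factor whose motif was searched, was at 19.7 in NSC, 58.6, 57.8 and 54.4 in the NSC-CiPSC lines, 15.1 in IEC, 57.1 and 63.4 in the IEC-CiPSC lines and 48.3 in ESC. Its change was 1.48 ± 0.09 (SE, adjusted p = 0.000703) and 1.93 ± 0.09 (SE, adjusted p = 0.000268). The PGC-1 relative Pprc1 rose by 2.43 ± 0.19 (SE, adjusted p = 0.00125) and 1.42 ± 0.20 (SE, adjusted p = 0.00518), and the nuclear receptor Esrra fell from NSC by 1.61 ± 0.22 (SE, adjusted p = 0.00577). Esrrb, also a pluripotency factor, was at 2.32 in NSC, 0.0486 in IEC and 122 to 169 in the lines, and rose in both routes. Ppara fell in both routes, from 2.76 in NSC and 3.68 in IEC to at most 0.152 in a line, and Pparg was listed at 0 in all lines against 6.19 in IEC.

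Among 29 other mitochondrial genes of import, matrix enzymes and porins, 15 fell and 8 rose from NSC, while 20 rose from IEC, with medians of -0.41 and 0.89. The 8 rises from NSC were at the share of all genes, 27.3%. The 15 falls from NSC were above the 28.6% of all genes, and the 20 rises from IEC above 27.3%. Cs, the citrate synthase of the citric acid cycle, was highest in NSC, at 408, and at 101, 132 and 119 in the NSC-CiPSC lines. It fell by 1.80 ± 0.16 (SE, adjusted p = 0.00193). Slc25a4, the ADP/ATP carrier of muscle and brain, fell from NSC by 2.57 ± 0.24 (SE, adjusted p = 0.00195). Its paralogue Slc25a5, an X-linked carrier of dividing cells, was at 1159 in NSC, 670.4, 674 and 637 in the NSC-CiPSC lines, 210.3 in IEC, 1001 and 1063 in the IEC-CiPSC lines and 556 in ESC, with the IEC-CiPSC lines near NSC. Hspd1, the matrix chaperonin, was at 346 in NSC, 633, 509 and 507 in the NSC-CiPSC lines, 107 in IEC, 502 and 545 in the IEC-CiPSC lines and 539.6 in ESC, lowest in IEC and highest in NSC-CiPSC line 1. In the difference between the routes 21 of the 29 passed, all lower, where 17.6% of all genes did, with a median of -1.46.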

How the data were processed

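Total RNA of 8 libraries was sequenced after extraction with the RNeasy Plus Mini Kit and library construction with NEBNext Ultra reagents, per the labels' protocols. TopHat and Cufflinks were used with the mm10 build, per the submitters' processing notes; versions, annotation release and the use of strand are not given in the sources used here. The deposited values are FPKM per gene with a 95% interval. Entries marked LOWDATA or FAIL in any library (447) were left out, and 27 symbols that had turned into dates were restored from their identifiers. Levels were compared as log2(FPKM + 1) with limma 3.58.1 in R 4.3.3, with 1 mean per group over all 8 libraries, a trend in the prior and Benjamini-Hochberg adjustment over 17011 genes. NSC, IEC and ESC, with 1 library each, were assumed to vary like the lines. The spread rests on 3 residual degrees of freedom and 1.10 of the prior. FPKM are not counts, so depth is an estimate from the deposited intervals of entries over 3000 bases. Named members are the mt- protein-coding genes, the Sdh, Atp5g and paralogue genes, and up to 4 members per complex, direction and comparison with the largest change of at least 2-fold at FPKM 10 or more, with up to 2 genes per pathway list by the same rule. Others given with values, such as Ndufs1, Ndufa3, Ndufb10, Ndufb11, Cox7c and Cox17, the further pathway genes and the motifs, were picked with their values in view. The members, lists and tests were chosen with earlier results of these data known. On simulated data the fit recovered 80% to 100% of 2-fold changes and 100% of 4-fold changes in the 5 simulated comparisons, with 2 to 8 false calls. The simulation gave all genes of similar level the same spread in every library and changed only genes above a set mean level. Genes of unlike spread and a deviant single library were not simulated, so the recovery may be too favourable and the false calls too few. Alternatives were the pseudocount, filters on low FPKM, 3 other scalings, the libraries fitted, the trend, the marked entries and each line left out. Summaries used Python 3.11.15 with pandas 2.3.3 and NumPy 2.4.6, and plots matplotlib 3.10.9.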

Additional observations from a re-analysis of the deposited data

Results flagged for a closer look

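The neural and the intestinal route differed for 35 named members by the limma interaction test, each with an adjusted p under 0.05 and a lower value in the neural route (log2 scale, neural change minus intestinal change). Many of these members were named for a large change in this same test or in a single route, so their passing is partly built in. Of all genes 17.6% were lower in this test. Both source libraries are single, and their difference enters each value in full. In complex I and its assembly factors the values were -2.78 for Ndufc2, -2.24 for Ndufaf5, -2.24 for Ndufs5, -2.14 for Ndufa12, -2.04 for Ndufa1, -1.67 for Ndufa5, -1.33 for Ndufs6 and -1.02 for Ndufaf1. In complex II they were -2.09 for Sdhc, -1.98 for Sdha, -1.76 for Sdhb and -1.61 for Sdhd. In complex III they were -2.31 for Uqcrfs1, -2.01 for Uqcr10, -1.94 for Uqcrc1, -1.80 for Uqcrc2, -1.80 for Uqcrb, -1.76 for Uqcr11 and -1.18 for Uqcrh. In complex IV, mt-Co1 included, they were -3.84 for Cox6b2, -3.10 for mt-Co1, -2.63 for Cox7b, -2.51 for Cox5a, -1.75 for Cox20, -1.74 for Cox6b1, -1.72 for Cox8a, -1.47 for Ndufa4 and -1.45 for Cox7a2. In complex V they were -2.15 for Atp5g3, -2.10 for Atp5f1, -2.09 for Atp5g1, -1.99 for Atp5b, -1.59 for Atp5a1, -1.58 for Atp5o and -1.33 for Atp5h. Calls of Cox6b2, Cox20, Ndufa12, Sdhc, Uqcrc2 and mt-Co1 were lost without IEC-CiPSC line 10 and without line 13, with adjusted p of 0.0519 to 0.0932 over these fits. Those of Sdhc and mt-Co1 were also lost without NSC-CiPSC line 3, and that of Cox8a without IEC-CiPSC line 10 (adjusted p = 0.0501).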

How the results depend on the processing

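No paired analysis was possible because the groups compared share no replicate numbers: the NSC-CiPSC lines are numbered 1, 2 and 3, the IEC-CiPSC lines 10 and 13, and the controls carry none. Counts are over all 117 tested members, and the cause of each change was not tested. Shares of all genes under the other settings are not given here, so a change in the members alone cannot be told from one in all genes. From IEC to IEC-CiPSC the median of all genes shifted by -0.15, 0.18 and -0.12 with rescaled FPKM, quantile normalization and median-ratio size factors. Under 9 alternative settings, with all lines, falls from NSC stayed at 64 to 87 (73 as reported) and lower values in the difference between the routes at 73 to 81 (74 as reported). With the rescaled FPKM, IEC to IEC-CiPSC gave 11 falls and 11 rises of at least 2-fold (3 and 17 as reported), NSC-CiPSC was higher than ESC for 6 members, 1 of them 2-fold (3 and 0), and IEC-CiPSC for 8 (3). Quantile normalization gave 9 falls from IEC, 1 of them 2-fold (2 as reported), 1 member 2-fold higher than ESC in NSC-CiPSC and 5 higher than ESC in IEC-CiPSC. Median-ratio size factors gave 9 falls from IEC, 6 members higher than ESC in IEC-CiPSC and 2 higher in NSC-CiPSC than in IEC-CiPSC (5 as reported), and 3 without the trend. With FPKM of at least 5, 1 member fell 2-fold from IEC and 1 was 2-fold higher than ESC in NSC-CiPSC. With the compared groups only, 0 members of NSC-CiPSC and 1 of IEC-CiPSC, 2-fold, were higher than ESC. With each line left out in turn, rises from NSC numbered 3 to 8, 2 to 5 of them 2-fold (4 and 3 as reported), rises from IEC 33 to 58 (50) and falls from IEC 2 to 5 (3). Members higher than ESC were then 0 to 6 in NSC-CiPSC, 0 to 1 of them 2-fold, and 0 to 7 in IEC-CiPSC, 0 to 3 of them 2-fold. Between the origins 0 to 3 were higher (5 as reported) and 0 to 4 lower, 0 to 3 of them 2-fold, and in the difference between the routes 0 to 1 were higher, also at 2-fold. Without NSC-CiPSC line 1 the rises from NSC were 8 and the higher values in the difference between the routes 1. The mt- share of NSC was 12.6% without selenoprotein genes in the denominator (11.6% as reported). Of 110 calls on named genes 101 held under the other pseudocount and scalings, 81 held with every line left out in turn, and 0 reversed. Depth is an estimate only, so intervals for genes near 0 were not computed. Ndufs5 summed with its copy was an alternative chosen after seeing the data.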
